A study of Mus musculus with 8 samples.

Results

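This account describes 32 genes of DNA replication and S phase in B cells of lupus-prone mice, chosen by name from the 49315 features of the deposited expression table, in which all 32 were found. Replication origins are licensed in G1, when Cdc6 and Cdt1 load the ring-shaped helicase of Mcm2 to Mcm7 onto DNA. In S phase the ring is activated by Cdc45 and the GINS proteins, and primase, the polymerases and the sliding clamp PCNA copy the DNA with deoxynucleotides, which are made in part from de novo pyrimidines. Most spleen B cells rest outside the cell cycle, whereas germinal centre B cells and early plasma cells divide fast, so these genes are widely read as marks of dividing cells.

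RNA was sequenced after poly(A) enrichment from total B cells isolated from spleen. The 4 UMPS BKO samples came from mice of the genotype FcgammaR2BKO/UMPS BKO, which by its name lacks, in B cells, Umps, the enzyme of the last steps of de novo uridine monophosphate synthesis. The 4 control samples came from FcgammaR2BKO/CD23Cre+ mice. Both groups were aged to 4 months and lack FcγRIIB, an inhibitory Fc receptor of B cells, a background with spontaneous lupus-like disease. CD23 is carried by mature follicular B cells and is low on germinal centre B cells; the Cre line behind the UMPS deletion is not named apart from that of the controls. No label ties a numbered sample to an animal of its own, so the spread that p-values measure may be technical.

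The values are TPM, read numbers divided by gene length and scaled to 1000000 per library, so levels of different genes can be set side by side within a library. Low TPM values lie on steps worth 1 read each, which gave a depth, in units of 1000000 reads, of 10.6 to 28.6 in UMPS BKO and 5.81 to 18.8 in controls. Features that match ribosomal RNA took 37.6% to 60.5% of TPM in UMPS BKO and 5.42% to 60.3% in controls, and such a share lowers the TPM of every other gene. Umps itself stood at 1.05 to 13.6 TPM in UMPS BKO and 8.98 to 35.1 TPM in controls and was not called (limma, adjusted p = 0.283); the deleted exons are not given in the sources used, so its level checks the labels only in part. Summed TPM of 16 pan-B cell markers was 813 to 16313 in UMPS BKO and 7450 to 32981 in controls, with none of them at 0 throughout a group. The most abundant of them, Cd74, was at 233 to 10511 TPM in UMPS BKO and 3882 to 22888 TPM in controls. Skeletal muscle markers summed to 124417 TPM in UMPS BKO replicate 4. Hepatocyte markers summed to 39298 and 12686 TPM in control replicates 2 and 3. These 3 libraries thus carried much RNA typical of another tissue beside that of B cells. At a lower level, muscle markers summed to 265, 1313 and 913 TPM in UMPS BKO replicates 1 to 3. In control replicates 1 and 4 they summed to 2887 and 1001 TPM, so every library held some RNA of another tissue. In such bulk samples fewer cells of a type and less RNA per cell cannot be told apart.

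Promoters of replication genes are known to carry sites for E2F factors, which switch on genes at the start of S phase. The 8-letter E2F motif was searched on both strands as TTTCCCGC, TTTCGCGC, TTTGCCGC and TTTGGCGC in RefSeq promoter windows of GRCm38.p6, 250 bases before to 50 after a gene's start. Of the 23 members with a window, 10 held a match (43.5%), against 704 of 27025 genes (2.61%). A gene with several matches counts once, and a match is a description of letters and not of binding. The 3 stretches printed here are those with a match before the start that lay wholly outside the gene's annotated span. They show 2 arrangements, a pair of overlapping matches on opposite strands in Mcm5 and Mcm6 and a single match in Pola1. Mcm6 holds 1 more match outside its stretch. Each is written 5′ to 3′ along the gene's strand, with the matched letters in capitals. They lie at chr8:75109332-75109391 on the plus strand for Mcm5, at chr1:128359760-128359819 on the minus strand for Mcm6 and at chrX:93632260-93632319 on the minus strand for Pola1.
Mcm5: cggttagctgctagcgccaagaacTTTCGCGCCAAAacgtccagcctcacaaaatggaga
Mcm6: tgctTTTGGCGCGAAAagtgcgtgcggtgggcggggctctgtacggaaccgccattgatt
Pola1: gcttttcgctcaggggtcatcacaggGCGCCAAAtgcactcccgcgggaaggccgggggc
Among the helicase subunits with a window, Mcm3 and Mcm7 also held matches, and Mcm2 held none of these letters. Pcna, Cdc45 and Prim1 held none either.

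None of the 31 tested replication genes passed the test between UMPS BKO and control libraries, and for most of them the groups overlapped. Genes with 1 TPM or more in 4 or more of the 8 libraries entered the test, limma on log2(TPM + 1) over 10708 genes, and a gene passed at a Benjamini-Hochberg adjusted p under 0.05. The test called 0 members lower, where 0.0934% of all tested genes were called lower, and 0 members higher, where 0.0374% were. The members' adjusted p ran from 0.277 to 0.903 in limma. At an unadjusted p under 0.05, 10 of the 31 members were lower and 0 higher, against 16.4% of all tested genes lower. After median-of-ratios scaling 3 of the 31 were, against 4.85% of all tested genes, and after quantile normalization 2 of the 31, against 4.21%. Differences are on the log2(TPM + 1) scale, UMPS BKO minus control, and understate those of low genes. With array weights, which give noisy libraries less say, 6 members passed as lower, where that fit called 17.8% of all tested genes lower. They were Cdc45, Prim1, Pcna, Dscc1, Mcm3 and Pola1 (limma, adjusted p from 0.0324 to 0.0477). Cdc45 and Dscc1 reached 1 TPM in the controls alone, so they entered the test only through the group where they were high.

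The log2 difference was below 0 for 30 of the 31 tested members, as it was for 84.3% of all tested genes. Its median was −1.41 over the members and −0.90 over all tested genes. Median-of-ratios scaling, which matches libraries on their typical gene, brought these medians to −0.68 and −0.15, and 23 members were then below 0, against 57.4% of all tested genes. Relative to the median of all tested genes the members thus stood at −0.51 before scaling and −0.54 after it. That gap was smaller than a spread of levels between libraries of a group, 0.77 (SD within groups, 8 libraries). The spread is that of each library's member median minus its median of all tested genes, and is no standard error of the gap. The gap was −0.14 without UMPS BKO replicate 4, −0.80 without UMPS BKO replicate 3, and 0.12 with each library's mean over pan-B cell markers as a covariate. Without the liver-marked control replicates 2 and 3 and the muscle-marked UMPS BKO replicate 4, chosen after seeing the data, it was 0.041. The libraries left in still held muscle markers at a lower level. In that smaller set 13 of 20 tested members were below 0, against 74.6% of 7809 genes, and 0 were lower at an unadjusted p under 0.05 in limma, against 0.653% of those genes. These medians describe the members that passed the filter and support nothing by themselves. With no filter the median over all 32 members was −1.40, against −0.46 over 19860 genes. The genes added there reached 1 TPM in fewer than 4 libraries, where this scale understates differences. The wider gap of −0.94, with a spread of 0.97, therefore says nothing more about the members.

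**Figure D1:**
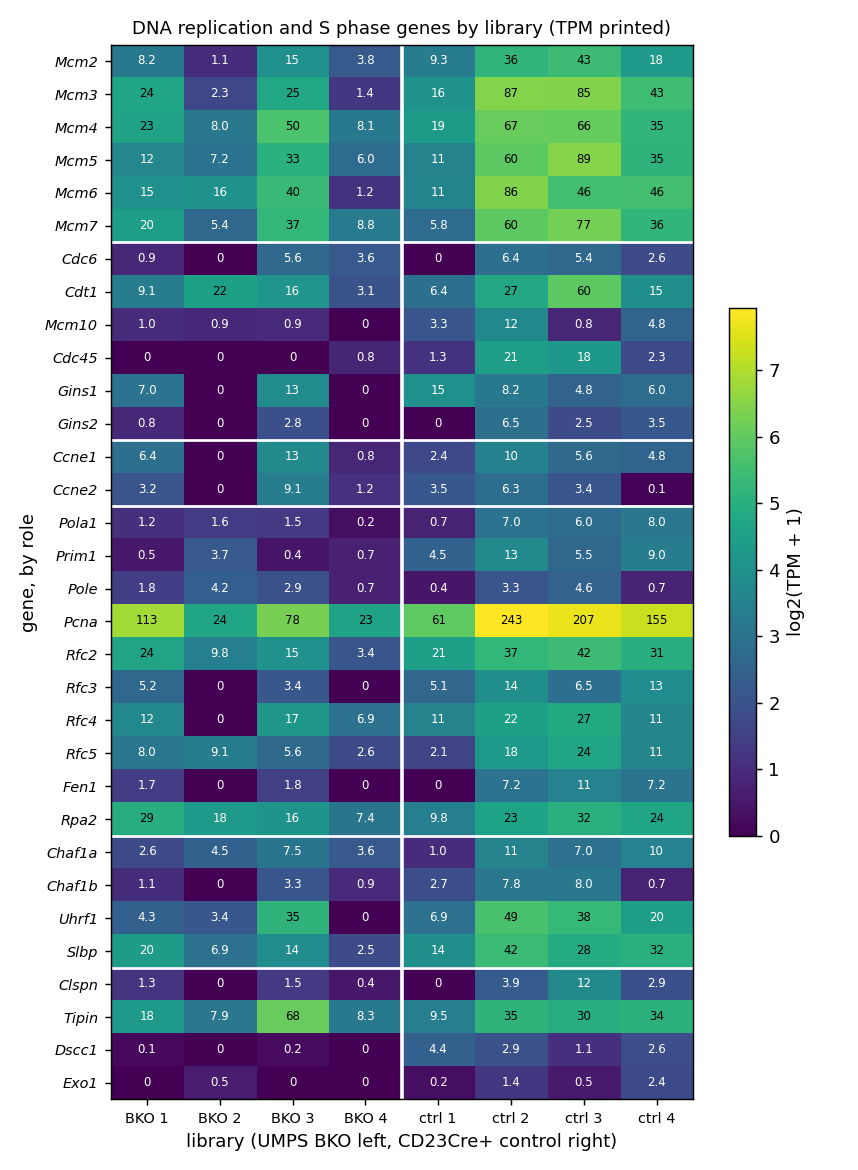
Each cell is 1 gene in 1 library, coloured by log2(TPM + 1) with its TPM printed, and grouped by role from helicase at the top to fork protection at the bottom. UMPS BKO libraries 1 to 4 are left and controls 1 to 4 right; most rows are darker on the left, but the controls' first column is also dark and UMPS BKO 3 is bright in several rows.

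The libraries of each group differed as much as the groups did. The members' summed TPM was 374, 157, 533 and 99.5 in UMPS BKO replicates 1 to 4, against 258, 1032, 997 and 628 in control replicates 1 to 4. UMPS BKO replicates 1 and 3 thus lay above control replicate 1. Control replicate 1 was the lowest control for 27 of 32 members, and UMPS BKO replicate 3 was the highest UMPS BKO library for 19. Scaled by the median of ratios, the sums were 316, 313, 662 and 146 in UMPS BKO and 328, 543, 464 and 436 in controls, so that UMPS BKO replicate 3 became the highest of the 8. The values at 0 were 24 of 128 in UMPS BKO, of which 12 fell in replicate 2 and 8 in replicate 4, and 4 of 128 in controls, all in replicate 1. Genes that most cells use, such as Cdk4, were listed at 0 in UMPS BKO replicate 2 too, so a 0 is reported below as a listing only.

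The 6 subunits of the MCM2-7 helicase, which unwinds DNA ahead of the fork, all had a lower mean TPM in UMPS BKO, but none passed and their groups overlapped. Mcm3 was at 24.1, 2.30, 25.3 and 1.43 TPM in UMPS BKO, against 15.8, 86.8, 85.2 and 42.9 TPM in controls. Mcm2 was at 8.15, 1.07, 14.7 and 3.76 TPM in UMPS BKO, against 9.34, 35.8, 42.6 and 18.3 TPM in controls. For both, control replicate 1 lay below the highest UMPS BKO library, and the other controls lay above all of them. Mcm3 differed by −2.51 ± 0.91 and Mcm2 by −1.96 ± 0.77 (SE, n = 4 per group; limma, adjusted p = 0.283 for each).

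Mcm5 was at 11.8, 7.18, 32.7 and 6.03 TPM in UMPS BKO, against 10.6, 59.5, 88.5 and 34.5 TPM in controls. Mcm6 was at 14.7, 15.8, 40.2 and 1.23 TPM in UMPS BKO, against 10.96, 86.0, 45.6 and 46.4 TPM in controls. Both had their lowest control in replicate 1 and their highest UMPS BKO value in replicate 3. Mcm4 averaged 22.2 ± 19.9 TPM in UMPS BKO and 46.8 ± 23.8 TPM in controls, and Mcm7 averaged 17.9 ± 14.3 TPM in UMPS BKO and 44.8 ± 30.8 TPM in controls (SD, n = 4 each). For Mcm4 the spread within each group was near the distance between the groups, and for Mcm7 that held in the controls only. The 4 subunits differed by −1.62 (Mcm5), −1.64 (Mcm6), −1.26 (Mcm4) and −1.14 (Mcm7) on the log2 scale, with limma adjusted p of 0.288, 0.322, 0.330 and 0.415. After median-of-ratios scaling the 6 subunits ranged from −1.67 for Mcm3 to −0.23 for Mcm7.

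The subunits join the ring in equal numbers, so their TPM can be set against each other within a library. The highest subunit exceeded the lowest by 2.08 to 3.25 times in the controls and by 2.96, 14.8, 3.42 and 7.17 times in UMPS BKO replicates 1 to 4. The wide range in UMPS BKO replicate 2 came from Mcm2 at 1.07 TPM beside Mcm6 at 15.8 TPM, and in replicate 4 from Mcm6 at 1.23 TPM beside Mcm7 at 8.84 TPM. Mcm2 was the lowest subunit in 6 of 8 libraries, the exceptions being UMPS BKO replicate 4 and control replicate 1. The Mcm7 gene also holds the microRNAs Mir25 and Mir93 on its own strand, both listed at 0 in all libraries.

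**Figure D2:**
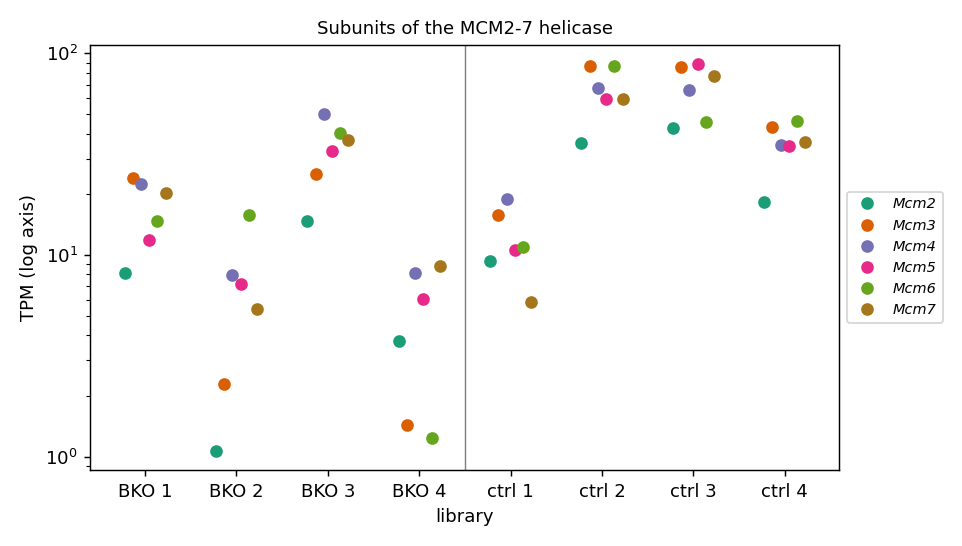
TPM of the 6 helicase subunits on a log axis, 1 point per subunit and library, UMPS BKO left and controls right. The points spread from 1.07 to 15.8 TPM in UMPS BKO 2 and from 1.23 to 8.84 TPM in UMPS BKO 4, more widely than in any control.

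Of the genes that license and fire origins, Cdc45 (chr16:18780447-18811987 of GRCm38, minus strand), which joins the MCM ring to form the active helicase, showed the largest difference of all members. Cdc45 was listed at 0, 0, 0 and 0.758 TPM in UMPS BKO, against 1.26, 20.9, 17.7 and 2.34 TPM in controls. The groups did not overlap, and within the controls the values split between replicates 2 and 3, which were high, and replicates 1 and 4, which were near the UMPS BKO level. They rested on 0, 0, 0 and 42 recovered reads in UMPS BKO and 56, 427, 153 and 89 in controls; at 3 reads the TPM of Cdc45 would have been 0.0454, 0.0870 and 0.0644 in the 3 UMPS BKO libraries at 0. The difference was −2.69 ± 0.80 (SE, n = 4 per group) and did not pass (limma, adjusted p = 0.283). Cdc45 reached 1 TPM in the controls alone, so its lack of overlap and its large difference rest on the filter. Exons of Cdc45 share 209 bases, 5.96% of their length, with Ufd1 on the other strand.

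The other 5 genes of this role moved less evenly. Cdt1, a loader of the helicase, was at 9.06, 21.8, 16.4 and 3.06 TPM in UMPS BKO, against 6.37, 26.6, 59.97 and 14.6 TPM in controls. Cdc6, which acts beside it, was at 0.873, 0, 5.62 and 3.60 TPM in UMPS BKO, against 0, 6.43, 5.36 and 2.56 TPM in controls. For both genes the groups were mixed, and the log2 differences of −0.89 and −0.39 became 0.010 and 0.26 after scaling. Mcm10, a factor of helicase activation, was at 1.00, 0.859, 0.930 and 0 TPM in UMPS BKO, against 3.31, 11.9, 0.791 and 4.84 TPM in controls, where replicate 3 fell among the UMPS BKO values. Its difference was −1.59 ± 0.68 (limma, adjusted p = 0.283). The GINS genes overlapped widely: Gins1 reached 13.2 TPM in UMPS BKO and 14.9 TPM in controls, and Gins2 reached 2.81 TPM in UMPS BKO and 6.54 TPM in controls. Exons of Gins2 share 67.3% of their length with Gse1 on the other strand, and reads of the pair cannot be told apart without strand.

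Cyclin E, the partner of Cdk2 at entry into S phase, had the smallest median difference of the roles, and its groups overlapped. Ccne1 was at 6.44, 0, 12.9 and 0.808 TPM in UMPS BKO, against 2.40, 10.3, 5.64 and 4.82 TPM in controls. Ccne2 was at 3.24, 0, 9.07 and 1.19 TPM in UMPS BKO, against 3.49, 6.34, 3.37 and 0.0528 TPM in controls. UMPS BKO replicate 3 held the highest value of all 8 libraries for both. Their differences were −0.75 ± 0.87 for Ccne1 and −0.17 ± 0.84 for Ccne2 (SE, n = 4 per group; limma, adjusted p = 0.595 and 0.903). The interval of 1 SE spans 0 for both, which does not show that the levels were alike.

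Among the genes of the copying machinery, Pcna (chr2:132249162-132253314, minus strand), the sliding clamp, was the most abundant member in all 8 libraries. Pcna was at 113, 24.4, 78.4 and 23.0 TPM in UMPS BKO, against 60.8, 243, 207 and 155 TPM in controls. Control replicate 1 lay below UMPS BKO replicates 1 and 3, and the other controls lay above every UMPS BKO library. The averages were 59.7 ± 43.9 TPM in UMPS BKO and 167 ± 79.3 TPM in controls (SD, n = 4 each), and the difference of −1.62 ± 0.69 did not pass (limma, adjusted p = 0.283). After median-of-ratios scaling it was −0.68. The annotation holds the pseudogenes Pcna-ps1 and Pcna-ps2, so part of its reads may have been placed elsewhere or left out.

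Prim1 (chr10:128015168-128030037, plus strand), the catalytic subunit of primase, which lays the RNA primers of new strands, separated the groups. Prim1 was at 0.453, 3.68, 0.370 and 0.670 TPM in UMPS BKO, against 4.54, 12.6, 5.46 and 9.04 TPM in controls. All 4 UMPS BKO libraries lay below all controls, with UMPS BKO replicate 2 far above its own group. The difference was −2.07 ± 0.67 and did not pass (limma, adjusted p = 0.283); after scaling it was −1.33, and UMPS BKO replicate 2 was then the highest of the 8 libraries. Pola1, the polymerase that works with primase, was at 1.16, 1.64, 1.49 and 0.215 TPM in UMPS BKO, against 0.688, 7.03, 5.99 and 7.99 TPM in controls. Here control replicate 1 sat among the UMPS BKO libraries and the other 3 controls stood clear of them (difference −1.41 ± 0.69; limma, adjusted p = 0.292).

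Pole, the catalytic subunit of the leading-strand polymerase, was the single tested member with a difference above 0. Pole was at 1.80, 4.18, 2.87 and 0.663 TPM in UMPS BKO, against 0.409, 3.29, 4.58 and 0.720 TPM in controls. The groups overlapped over nearly their whole range, and the difference of 0.17 ± 0.67 did not pass (limma, adjusted p = 0.879). Rpa2, a subunit of the protein that coats single-stranded DNA, was at 29.4, 18.3, 16.3 and 7.39 TPM in UMPS BKO, against 9.79, 23.1, 31.7 and 24.2 TPM in controls. Its difference of −0.33 ± 0.63 (limma, adjusted p = 0.747) became 0.58 after median-of-ratios scaling, and that of Pole became 0.86. Fen1, the nuclease that trims flaps between new fragments, was at 1.69, 0, 1.83 and 0 TPM in UMPS BKO, against 0, 7.16, 10.6 and 7.24 TPM in controls, again with control replicate 1 apart from the other controls.

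The clamp loader, which opens PCNA and sets it on DNA, is built of Rfc1 and the small subunits Rfc2 to Rfc5. Rfc3 was at 5.22, 0, 3.44 and 0 TPM in UMPS BKO, against 5.15, 14.3, 6.52 and 13.4 TPM in controls. The overlap lay between UMPS BKO replicate 1 and control replicate 1 alone, and the difference was −2.13 ± 0.79 (limma, adjusted p = 0.283). Rfc2 averaged 13.1 ± 8.74 TPM in UMPS BKO and 32.9 ± 8.93 TPM in controls (SD, n = 4 each). Its groups also touched at those 2 libraries, with 24.0 TPM in UMPS BKO replicate 1 and 21.4 TPM in control replicate 1. Rfc5 averaged 6.34 ± 2.90 TPM in UMPS BKO and 13.9 ± 9.48 TPM in controls, and Rfc4 ranged from 0 to 17.2 TPM in UMPS BKO and from 10.8 to 27.2 TPM in controls. The log2 differences were −1.49 for Rfc2, −0.77 for Rfc5 and −1.40 for Rfc4 (limma, adjusted p = 0.283, 0.535 and 0.360). Exons of Rfc2, Rfc4 and Rfc5 overlap Lat2, Eif4a2 and Wsb2 on the other strand over 15.1%, 12.7% and 10.7% of their length.

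**Figure D3:**
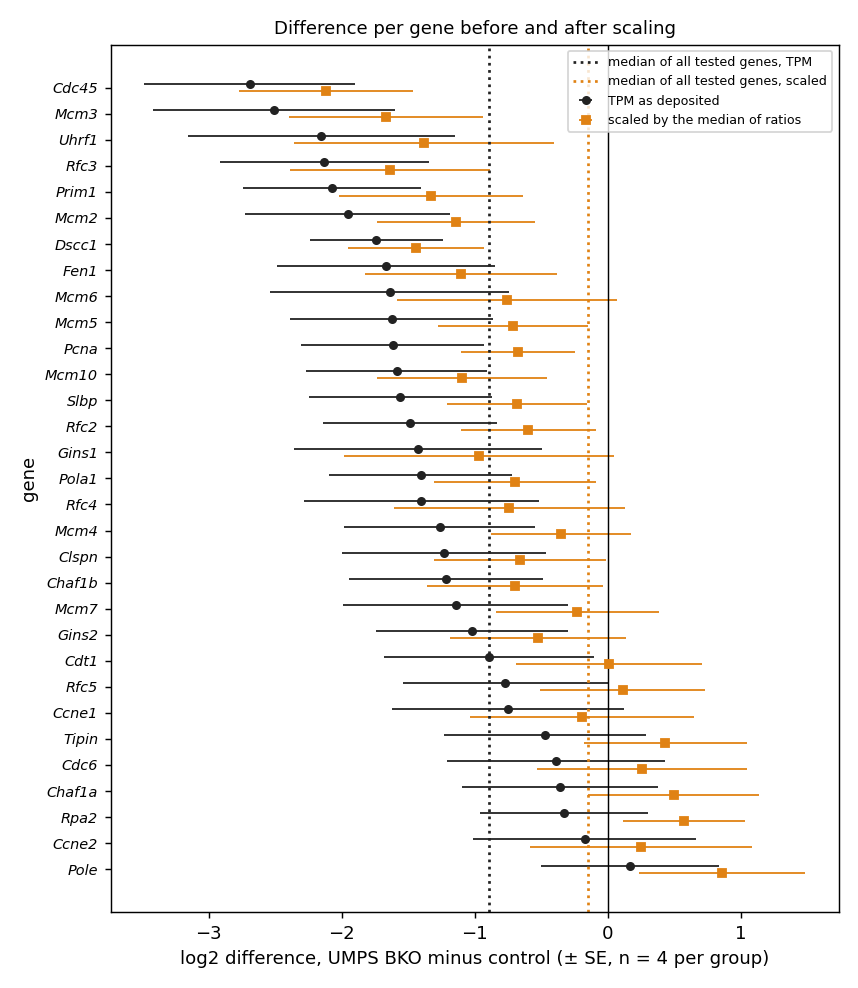
Log2 difference of each of the 31 tested members, UMPS BKO minus control, with its SE (n = 4 per group), for TPM as deposited (circles) and after median-of-ratios scaling (squares); dotted lines mark the median of all tested genes. Cdc45 is the lowest and Pole the highest, and scaling moves every gene to the right.

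Of the 4 genes that act on chromatin and histone mRNA behind the fork, none passed, and their values spread widely within each group. Uhrf1, which brings the maintenance DNA methyltransferase to new DNA, was at 4.35, 3.44, 34.9 and 0 TPM in UMPS BKO, against 6.90, 49.1, 38.4 and 20.4 TPM in controls. UMPS BKO replicate 3 reached the level of the controls and the other UMPS BKO libraries lay below all of them (difference −2.15 ± 1.00; limma, adjusted p = 0.288). Slbp, which binds the stem-loop of histone mRNAs, averaged 10.6 ± 7.48 TPM in UMPS BKO and 29.0 ± 11.4 TPM in controls (SD, n = 4 each). Its difference was −1.56 ± 0.69 (limma, adjusted p = 0.283), and the groups overlapped between 19.6 TPM in UMPS BKO replicate 1 and 14.3 TPM in control replicate 1. Of the histone chaperone subunits of chromatin assembly factor 1, Chaf1b reached 3.34 TPM in UMPS BKO and 8.03 TPM in controls. Chaf1a averaged 4.56 ± 2.12 TPM in UMPS BKO and 7.23 ± 4.45 TPM in controls (SD, n = 4 each), and its difference of −0.36 became 0.50 after scaling. Exons of Chaf1a share 52.5% of their length with Ubxn6 on the other strand, so its value is uncertain.

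Of the genes of fork protection, cohesion and repair, Dscc1 (chr15:55076099-55090491, minus strand), part of the clamp loader that links replication to sister chromatid cohesion, had the smallest p of all members. Dscc1 was at 0.132, 0, 0.170 and 0 TPM in UMPS BKO, against 4.45, 2.95, 1.10 and 2.65 TPM in controls. The groups did not overlap, with 11, 0, 10 and 0 recovered reads behind the values in UMPS BKO and 250, 76, 12 and 127 in controls. The difference was −1.74 ± 0.50 (SE, n = 4 per group) and did not pass (limma, adjusted p = 0.277). Dscc1 reached 1 TPM in the controls alone, so its lack of overlap and its small p rest on the filter. Its highest control was replicate 1, as for Gins1.

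Tipin, which steadies stalled forks with Timeless, was at 18.0, 7.89, 67.7 and 8.29 TPM in UMPS BKO, against 9.53, 34.8, 29.7 and 33.5 TPM in controls. UMPS BKO replicate 3 was higher than any other library (difference −0.47 ± 0.76; limma, adjusted p = 0.703). Clspn, the adaptor of the replication checkpoint, was at 1.34, 0, 1.52 and 0.422 TPM in UMPS BKO, against 0, 3.94, 12.4 and 2.86 TPM in controls (limma, adjusted p = 0.358). Exo1, an exonuclease of mismatch and break repair, was the member that failed the filter. It was listed at 0, 0.507, 0 and 0 TPM in UMPS BKO, against 0.234, 1.39, 0.482 and 2.44 TPM in controls, and its groups overlapped.

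Cdc45, Dscc1 and Prim1 were thus the 3 members whose UMPS BKO libraries all lay below all controls, where 4.81% of all tested genes did so (515 of 10708), and 0.504% lay above. Cdc45 and Dscc1 reached 1 TPM in the 4 controls and in no UMPS BKO library. For them the filter itself fixed the separation, as it did for 46 tested genes in all. Leaving those 46 genes out left 1 member, Prim1, among 469 genes that lay below all controls. With no filter, 3 of 32 members lay below all controls, against 2.96% of 19860 genes. After median-of-ratios scaling the count was 2 of 31, against 2.25%. Both were the filter-picked Cdc45 and Dscc1, so that count supports nothing. Without control replicate 1 the count was 13 of 28 members, where 31.2% of the genes tested then lay below all controls. Cdc45 and Dscc1 no longer passed the filter there.

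The summed TPM of red cell markers was far higher in the UMPS BKO libraries, and germinal centre markers were scarce in most of them. Of 12 germinal centre markers, 11 were tested, 0 were called, and the summed TPM was 45.4 to 197 in UMPS BKO and 123 to 411 in controls. The list holds Cd38 and Gpr183, which germinal centre cells are known to carry at low levels; Cd38 alone was at 5.06 to 135 TPM in UMPS BKO and 66.2 to 117 TPM in controls. Of the list, Mef2b, Mybl1 and Rassf6 were listed at 0 in all UMPS BKO libraries. Bcl6, of the same list, was at 15.9, 7.38, 12.6 and 29.7 TPM in UMPS BKO. In controls Bcl6 was at 15.8, 26.0, 41.6 and 21.3 TPM, so its groups overlapped. All 11 tested germinal centre markers had a difference below 0, and 10 of them after median-of-ratios scaling. Of all tested genes 84.3% were below 0, and 57.4% after that scaling. Mef2b and Rassf6, at 0 in all UMPS BKO libraries, entered the test only through the controls, which fixed their sign. Of 16 erythroid markers, 15 were tested, with summed TPM of 4285 to 47747 in UMPS BKO and 239 to 632 in controls. In limma 3 rose, the globin genes Hba-a1, Hbb-bs and Hbb-bt, where 0.0374% of all tested genes were called higher. Hbb-bs alone was at 1639 to 19521 TPM in UMPS BKO. For 8 of the 15 all UMPS BKO libraries lay above all controls, as for 0.504% of all tested genes, and the others overlapped. Epb42, the untested one, was at 0 in all controls and at 0, 1.90, 11.7 and 0 TPM in UMPS BKO. Plasma cell markers summed to 80.5 to 967 TPM in UMPS BKO and 693 to 3080 TPM in controls, with 0 of 8 tested called in limma. The part of these cell types in the replication gene values was not tested.

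Ranks within a library do not depend on scaling. The median percentile of the tested members among all tested genes was 43.2, 47.0, 70.7 and 19.4 in UMPS BKO replicates 1 to 4, against 49.6, 57.2, 53.7 and 53.1 in control replicates 1 to 4. The members thus stood highest of all in UMPS BKO replicate 3 and lowest in UMPS BKO replicate 4. The germinal centre markers stood at 29.4, 15.1, 7.97 and 5.08 in UMPS BKO and at 29.0, 66.7, 59.5 and 69.8 in controls, while the erythroid markers stood at 74.2, 81.8, 98.1 and 83.9 in UMPS BKO and at 37.8, 39.9, 29.7 and 21.0 in controls. UMPS BKO replicate 3 therefore combined the highest rank of replication genes with the highest rank of erythroid markers and nearly the lowest of germinal centre markers. Of its erythroid genes, Epor, the erythropoietin receptor, was at 27.3 TPM there, against at most 7.14 TPM in any other library. Epor was at 0 in UMPS BKO replicates 2 and 4, and its group difference was −0.55. Of the listed erythroid markers only Klf1 and Tfrc were not highest in UMPS BKO replicate 3. Klf1 was highest in UMPS BKO replicate 1 (20.5 TPM) and Tfrc in UMPS BKO replicate 4 (35.2 TPM). The part of erythroid cells in the replication genes of UMPS BKO replicate 3 was not tested.

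**Figure D4:**
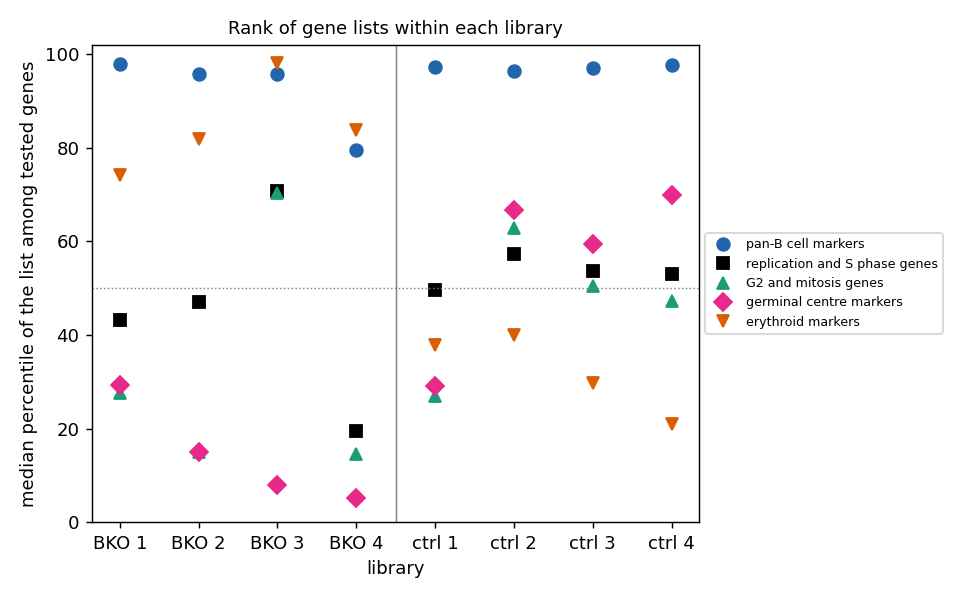
Median percentile of 5 gene lists among the 10708 tested genes of each library, UMPS BKO left and controls right; genes with equal values share their mean rank. Replication genes (squares) lie between 49.6 and 57.2 in the controls and between 19.4 and 70.7 in UMPS BKO, where replicate 3 is the highest for replication, mitosis and erythroid lists.

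Genes of the same pathway outside the 32 members passed no test either. Of 48 other replication genes, 43 were tested, 0 passed in either direction, 7 were lower at an unadjusted p under 0.05 in limma, where 16.4% of all tested genes were, and 40 had a difference below 0, where 84.3% of all tested genes had one. The list had a median difference of −1.17, and −0.39 after median-of-ratios scaling. The smallest p-values were those of Chtf18, a partner of Dscc1 in its clamp loader (−1.86), of the histone chaperone Asf1a (−2.96) and of the DNA ligase Lig1 (−1.68), each at a limma adjusted p of 0.283. Chtf18 was listed at 0, 0, 0 and 1.92 TPM in UMPS BKO, against 3.57, 1.80, 6.82 and 4.13 TPM in controls. Lig1, which seals the fragments that Fen1 trims, was at 11.01, 11.9, 3.23 and 6.65 TPM in UMPS BKO, against 14.3, 40.2, 35.3 and 22.3 TPM in controls, without overlap.

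Neighbouring steps of the cycle also passed no gene. Of 24 tested genes of G1/S control, 0 passed in limma, 21 were below 0 and the median was −0.93, close to that of all genes; Cdkn2d, Cdk4 and Ccna2 had the smallest p (−1.30, −2.34 and −1.64; limma, adjusted p = 0.283, 0.286 and 0.287). The 19 tested genes of G2 and mitosis had a median of −1.27, and −0.58 after median-of-ratios scaling. Prc1, Kif23 and Ccnb2 had the smallest p (−1.82, −1.87 and −2.70, limma, adjusted p = 0.283 for each). Of the 19, 18 were below 0, and 16 after scaling. Of all tested genes 84.3% were below 0, and 57.4% after scaling, the shares to set beside each such count here. Ube2c, the 1 of the 19 above 0 before scaling, was at 229 TPM in UMPS BKO replicate 4. Mki67, the standard marker of cycling cells, was at 1.96, 0.435, 31.4 and 0.176 TPM in UMPS BKO, against 7.38, 15.0, 11.1 and 10.5 TPM in controls. UMPS BKO replicate 3 was thus the highest library for Mki67 and the other UMPS BKO libraries lay below all controls. The 8 tested genes of deoxynucleotide synthesis were all below 0 with a median of −1.88, with Dtymk and Rrm2 among the smallest p (−1.97 and −2.28; limma, adjusted p = 0.283 for each), and 0 of them passed.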

How the data were processed

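The authors deposited TPM values in 1 table of 49315 features, and each of its 8 columns sums to 1000000. The tools named are STAR 2.5.2b, Subread 1.5.2 with featureCounts, and bcl2fastq 2.20, and the build named is GRCm38, per the submitters' processing notes. How TPM was computed, the annotation release, strand setting and filters are not given in these sources. Per the labels' protocols the NEBNext Ultra II RNA kit was used after oligo(dT) enrichment.

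Columns were matched to samples by library name, and groups came from the titles. Gene positions and exon lengths came from GENCODE M21, and 12 members overlap exons of a gene on the other strand. Reads were recovered by finding the step that makes TPM times exon length whole. Between 90.5% and 92.7% of values under 30 reads were whole within 0.05 reads. No count model was run. PCR reads are not independent molecules, so read numbers and floors (3 reads) cover counting error only.

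Differences were fitted with limma 3.58.1 in R 4.3.3 on log2(TPM + 1) (4 against 4 libraries, eBayes with trend, no covariate, two-sided). Python 3.11.15, numpy 2.4.6 and pandas 2.3.3 did the rest. The fit and the read recovery were tested on simulated data. The 32 members, the lists and the tests were chosen with earlier results of these data known. All members could be named; from each other pathway list the 3 genes with the smallest p were named, except 1 that is not reported here. Mef2b, Mybl1, Rassf6, Bcl6, Hba-a1, Hbb-bs, Hbb-bt, Epor, Epb42, Klf1, Tfrc, Ube2c and Mki67 were chosen after their values were seen. Of 23 other settings, 20 were listed at the outset and 3 sets of libraries were added after seeing the data. Lists of platelet, T cell and myeloid markers were also read: their summed TPM was 28.7 to 159, 10.8 to 136 and 51.4 to 547 in UMPS BKO, against 22.5 to 40.4, 77.3 to 199 and 258 to 904 in controls, with 0 genes called in limma. Hepatocyte and muscle markers gave 1.40 to 14.9 and 265 to 124417 in UMPS BKO, against 0 to 39298 and 0 to 2887 in controls, again with 0 called.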

Additional observations from a re-analysis of the deposited data

Results flagged for a closer look

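Within a group of 4 libraries, 1 value stood far from the other 3 in 7 of 64 groups checked, on the log2(TPM + 1) scale and by Dixon's 95% critical value; chance alone flags about 1 in 20 groups whose values are not tied. In UMPS BKO, Cdc45 was at 0.758 TPM in replicate 4 with the others at 0, and Exo1 at 0.507 TPM in replicate 2 with the others at 0. With 3 values tied at 0 any value above 0 is picked out, so these 2 groups say nothing beyond the listing. Prim1 was at 3.68 TPM in UMPS BKO replicate 2, above its group, and Mcm10 was listed at 0 in UMPS BKO replicate 4, below its group. In control replicate 1, Fen1 was listed at 0, Pola1 was at 0.688 TPM and Tipin at 9.53 TPM, each below the other controls.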

How the results depend on the processing

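No member was called higher under any of 23 alternatives, and 0 were called lower under all of them except array weights, which called 6. The replicate numbers did not pair the libraries: same-numbered libraries had deviations correlated at −0.35, −0.19, −0.028 and −0.090 and 0 of 4 matched best with their own number; with the replicate block 0 members were called and 23 genes were lower in all, against 10 without it. The members' median difference moved past the spread between libraries under the pan-B cell covariate alone (−0.22), and ranged from −1.71 to −1.08 when single libraries were left out; relative to all genes it then ranged from −0.80 to −0.14. The count of members with non-overlapping groups was 1 at a mean TPM of at least 5, 1 under quantile normalization, 1 without control 2 and UMPS BKO 4, 0 without controls 2 and 3 and UMPS BKO 4, 12 of 27 for UMPS BKO 1 and 3 against controls 2, 3 and 4 (44.9% of all genes then tested), and 1 to 13 when single libraries were left out. Control replicates 2 and 4 each brought it to 1 of 27 when left out, against 5.27% and 6.18% of all genes then tested. Leaving out UMPS BKO replicate 1 brought it to 6 of 30, against 20.7% of all genes then tested. Leaving out UMPS BKO replicate 3 brought it to 5 of 30, against 6.56%. The share of all genes was 4.36% at that mean TPM, 1.93% under quantile normalization and 8.59% without control 2 and UMPS BKO 4. Without controls 2 and 3 and UMPS BKO 4 it was 703 of 7809 genes. Of 663 single-gene values under these alternatives, 55 changed sign, none of them in a called gene. Scaling by the median of ratios turned Ccne2 (0.25), Cdc6 (0.26), Cdt1 (0.010), Chaf1a (0.50), Rfc5 (0.11), Rpa2 (0.58) and Tipin (0.43). Quantile normalization turned Ccne1 (0.15), Ccne2 (0.56), Cdc6 (0.47), Chaf1a (0.49), Rfc5 (0.068), Rpa2 (0.51) and Tipin (0.40). Removing ribosomal RNA-like and mitochondrial features turned Ccne2 (0.13), Cdc6 (0.10), Chaf1a (0.41), Rpa2 (0.42) and Tipin (0.27). Array weights turned Ccne2 (0.25) and Pole (−0.081). The pan-B cell covariate turned Ccne1 (0.56), Ccne2 (0.40), Cdt1 (0.22), Chaf1a (0.0081), Mcm6 (0.14), Mcm7 (0.17), Rfc5 (0.35), Rpa2 (0.74) and Tipin (0.51). Without control 2 and UMPS BKO 4, Ccne2 (0.35), Rpa2 (0.065) and Tipin (0.018) turned. UMPS BKO replicate 1 alone turned Ccne1 (0.26), Ccne2 (0.27) and Rpa2 (0.50), and UMPS BKO 1 and 3 against controls 2, 3 and 4 turned Ccne1 (0.42), Ccne2 (1.02), Gins1 (0.57), Pole (−0.069) and Tipin (0.10). Without controls 2 and 3 and UMPS BKO 4, Ccne1 (0.077), Cdt1 (0.56), Chaf1a (0.21), Mcm7 (0.11), Rfc5 (0.46), Rpa2 (0.39) and Tipin (0.25) turned. When single libraries were left out, Ccne2 ranged from −0.75 to 0.37, Cdc6 from −1.01 to 0.096, Pole from −0.15 to 0.51 and Rpa2 from −0.66 to 0.011. The cause of these turns was not tested. The lone UMPS BKO library is assumed to vary like the controls.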

Other observations

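Recovered reads of the members were either 0 or well above the lowest counts. The smallest value above 0 was 11, 42, 10 and 30 reads in UMPS BKO replicates 1 to 4, and 25, 68, 10 and 2 reads in control replicates 1 to 4. In UMPS BKO replicate 2, 12 members were at 0, Exo1 had 42 reads and Cdt1 had 673, with none in between 1 and 9 reads. Across all 8 libraries a single member value fell between 1 and 9 reads, that of Ccne2 in control replicate 4.

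The members' reads summed to 25388, 6432, 25845 and 5861 in UMPS BKO replicates 1 to 4, against 12230, 23428, 9530 and 26543 in control replicates 1 to 4. The helicase subunits made up 27.2%, 25.4%, 37.6% and 29.6% of the members' summed TPM in UMPS BKO, against 27.7%, 38.3%, 40.6% and 34.0% in controls. Pcna made up 30.2%, 15.6%, 14.7% and 23.1% in UMPS BKO, against 23.6%, 23.6%, 20.8% and 24.7% in controls.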
